A study of Homo sapiens with 15 samples.

Results

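The cyclin-dependent kinase inhibitors were read from 14 probe sets, those that the array annotation gives exactly 1 symbol among CDKN1A, CDKN1B, CDKN1C, CDKN2A, CDKN2B, CDKN2C and CDKN2D, out of 54613 probe sets that are no controls. They covered 6 of the 7 genes. CDKN1C had 5 probe sets, CDKN2A had 3, CDKN2B and CDKN2D had 2 each, and CDKN1A and CDKN1B had 1 each. CDKN2C was not analysed here. The cells were A549, an established human lung carcinoma line of epithelial origin, which attached during 24 h and then received either DMSO alone, at 0.4%, or the drug geldanamycin. Geldanamycin occupies the nucleotide pocket of the chaperone HSP90, and its doses of 40 nM and 10 nM stand for the IC50 and the IC20 of these cells. Total RNA was hybridised to 15 Affymetrix HG-U133 Plus 2.0 arrays, 3 in each of 5 groups: vehicle at 24 h, 40 nM at 24 h, vehicle at 48 h, 10 nM at 48 h and 40 nM at 48 h. All groups therefore share 1 cell line, 1 medium and the same solvent. Separate cultures are not named for the 3 arrays of a group, so the p-values cover array-to-array spread alone, and that may be technical. The question was how dose and time of HSP90 inhibition changed the transcripts of the inhibitors.

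Cyclin-dependent kinases drive the cell cycle when a cyclin is bound to them, and the inhibitors hold them back. The Cip/Kip proteins p21 (CDKN1A), p27 (CDKN1B) and p57 (CDKN1C) bind cyclin and kinase together and act on several kinases. The INK4 proteins p16 (CDKN2A), p15 (CDKN2B), p18 (CDKN2C) and p19 (CDKN2D) bind CDK4 and CDK6 alone. With these kinases held back, RB1 keeps E2F factors from turning on the genes of S phase. The CDKN2A locus at 9p21 is known to be deleted in A549, so the CDKN2A probe sets give the signal of a gene that is not there. CDKN1A is known to be induced by many kinds of stress, CDKN1B is mainly controlled through the stability of its protein, and CDKN1C is an imprinted gene at 11p15.

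The start regions of CDKN1A, CDKN1B and CDKN2D are shown because these genes passed the test in at least 1 comparison and matched an entry among the RefSeq promoters (GRCh38.p14). Each runs from 250 bases before to 50 bases after a start site, 5′ to 3′ on the gene's strand. CDKN1A lies at chr6:36678464-36678763 on the plus strand, CDKN1B at chr12:12717118-12717417 on the plus strand and CDKN2D at chr19:10568930-10569229 on the minus strand. In all, 6 of the 7 genes matched an entry, and CDKN1C did not. Capitals mark the GC box GGGCGG, the motif of SP1 factors, or the heat shock element core GAANNTTC, the motif of heat shock factors, both searched on either strand.
CDKN1A: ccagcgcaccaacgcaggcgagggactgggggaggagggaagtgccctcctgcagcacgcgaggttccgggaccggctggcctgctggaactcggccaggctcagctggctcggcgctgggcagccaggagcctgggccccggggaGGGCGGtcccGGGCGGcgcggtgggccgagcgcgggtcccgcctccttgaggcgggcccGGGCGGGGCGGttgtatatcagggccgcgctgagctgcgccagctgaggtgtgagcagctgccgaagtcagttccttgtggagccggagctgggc
CDKN1B: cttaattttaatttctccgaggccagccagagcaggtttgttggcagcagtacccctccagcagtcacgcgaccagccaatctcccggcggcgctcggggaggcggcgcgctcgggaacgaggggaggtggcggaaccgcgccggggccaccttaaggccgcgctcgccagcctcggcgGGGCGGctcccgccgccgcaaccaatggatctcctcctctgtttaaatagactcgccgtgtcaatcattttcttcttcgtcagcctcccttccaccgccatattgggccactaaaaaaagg
CDKN2D: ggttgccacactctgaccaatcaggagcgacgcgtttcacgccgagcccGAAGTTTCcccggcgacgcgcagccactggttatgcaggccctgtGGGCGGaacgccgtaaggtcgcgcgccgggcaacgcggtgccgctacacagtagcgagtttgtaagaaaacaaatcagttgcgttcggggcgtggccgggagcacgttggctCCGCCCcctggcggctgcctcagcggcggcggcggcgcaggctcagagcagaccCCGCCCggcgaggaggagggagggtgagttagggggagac
The CDKN1A window held 4 GC boxes, whose first bases lay at -104, -94, -45 and -40 from the start site, the last pair sharing 1 base, and its GC content was 74.3%. The CDKN1B window held 1 GC box, at -71, with a GC content of 62.3%. The CDKN2D window held GC boxes at -156, -44 and 10 and a heat shock element core at -201, with a GC content of 68%. Among 35116 promoters of the same length, 45% held a GC box and 6.77% the heat shock element core. The TATA box TATAAA, found in 11.5% of promoters, and the E box of MYC factors CACGTG, found in 7.26%, were not matched in these 3 windows. A match is only a match of letters.

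Values are log2 RMA values, 1 per probe set and array, and a difference of 1 is a 2-fold difference. RMA gives no detection call, and levels of different probe sets are not comparable as abundance. In bulk RNA, fewer cells of a kind and less RNA per cell cannot be told apart. The arrays of 24 h and 48 h differed in scale, with a mean over all probe sets of 5.13 in vehicle at 24 h and 5.52 in vehicle at 48 h, so levels were tested only within a time. Arrays of a group correlated at 0.993 to 0.998 over all probe sets (15 pairs). The 10 nM arrays stood apart from all others in their controls. The mean of 24 poly-A spike probe sets was 3.37 ± 0.041 (SD, n = 3) there against 5.93 ± 0.064 in vehicle at 48 h, and ACTB had a 3′ minus 5′ difference of 2.68 ± 0.025 against 0.35 ± 0.060. For GAPDH this difference was 0.13 at 10 nM and 0.15 in vehicle.

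Of the 5 epithelial markers, the keratins KRT8, with group means of 12 to 13, and KRT18, at 13 to 14, were high in all groups, CDH1 read 6.95 to 10.2, KRT19 4.85 to 8.95 and EPCAM 3.97 to 5.63. The 6 markers of alveolar type 2 cells, the type A549 is often taken to stand for, had group means from 2.63 for LAMP3 to 7.95 for ABCA3, and SFTPD read 3.29 to 3.59. With 40 nM all 5 epithelial markers were higher at both times, and their array means went from 8.28 to 8.39 in vehicle up to 9.33 to 9.40 at 24 h and from 9.33 to 9.38 up to 10.0 to 10.1 at 48 h. At 10 nM 2 epithelial markers were higher and KRT19 was lower, at 5.90 against 8.31 in vehicle, and 1 alveolar type 2 marker was higher. Of 5 fibroblast markers, 2 were lower at 10 nM, where the array means ran from 4.69 to 4.97 against 5.69 to 5.73 in vehicle. The widest gap was in LUM, at 2.92 against 6.37. COL1A1, the brightest of the 5, had group means from 7.79 to 8.78. It read 7.999 at 10 nM against 8.436 in vehicle at 48 h. COL1A2, COL3A1 and DCN read 4.29, 3.68 and 5.33 against 4.44, 3.88 and 5.43. With 40 nM 1 fibroblast marker was higher at 24 h and 1 lower at 48 h. Of 4 leukocyte markers, 2 were higher with 40 nM at 48 h, with array means of 5.1 to 5.2 against 4.5 to 4.7, and 1 was higher at 10 nM. None of the 5 endothelial markers passed in any comparison. RMA values have no 0, and the part of these markers and of the control probe sets in the results was not tested.

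Group means were compared with limma over all 54613 probe sets, two-sided, and a probe set passed at an adjusted p below 0.05 (Benjamini-Hochberg). With 40 nM at 24 h, 5 of the 14 probe sets were higher and 1 was lower, where 10.3% of all probe sets were higher and 10.7% lower. With 10 nM at 48 h, 3 were higher and none lower, against 9.8% and 9.28% of all. With 40 nM at 48 h, 1 was higher and 1 lower, against 6.49% and 6.02%. With 40 nM set against 10 nM at 48 h, 1 was higher and 3 lower, against 9.11% and 9.63%. The effect of 40 nM differed between the times for 7 probe sets, 2 with a higher and 5 with a lower difference at 48 h, against 5.04% and 4.54% of all. At 24 h, 4 of the 6 that passed were probe sets of CDKN1C, so these counts rest on 3 genes at 24 h, 2 at 10 nM, 2 with 40 nM at 48 h and 3 between the doses. The median difference of the 14 probe sets was 0.093 at 24 h, 0.21 at 10 nM and 0.0066 with 40 nM at 48 h, and that of all probe sets was -0.0016, 0.00067 and -0.014. The comparisons at 48 h share their vehicle arrays.

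**Figure D1:**
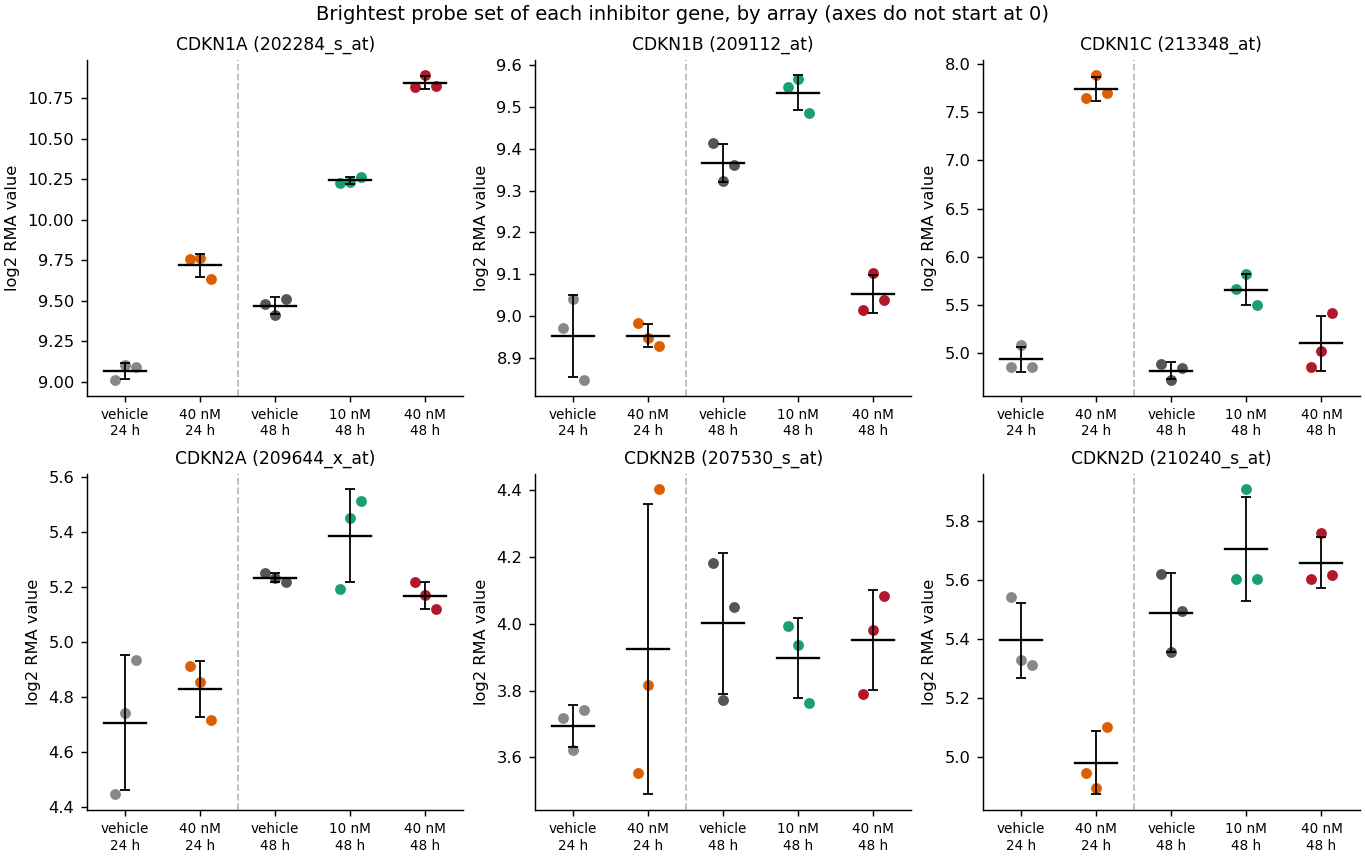
Log2 RMA level of the brightest probe set of each gene on the 15 arrays, by group, with points for arrays, a line at each group mean and bars of 1 SD (n = 3). CDKN1A was in the order vehicle, 10 nM, 40 nM at 48 h, CDKN1C stood highest in the 40 nM arrays of 24 h, and CDKN2A and CDKN2B did not pass in any comparison.

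CDKN1A encodes p21, which binds cyclin-kinase pairs and also the replication clamp PCNA. Its probe set, 202284_s_at, rose with geldanamycin at each dose and time measured. At 24 h the vehicle arrays read 9.01, 9.10 and 9.09 and the 40 nM arrays 9.76, 9.76 and 9.64, without overlap. At 48 h the vehicle arrays read 9.48, 9.41 and 9.51, the 10 nM arrays 10.23, 10.24 and 10.27 and the 40 nM arrays 10.82, 10.89 and 10.82. The 3 groups of 48 h were in the order vehicle, 10 nM, 40 nM, and no array crossed into a neighbouring group.

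At 24 h the CDKN1A difference was 0.65 ± 0.064 (SE, n = 3 per group), a 1.57-fold rise (adjusted p = 2.34e-06). At 48 h it was 0.77 ± 0.064 at 10 nM, 1.71-fold (adjusted p = 5.17e-07), and 1.38 ± 0.064 at 40 nM, 2.60-fold (adjusted p = 2.77e-09). The level at 40 nM was 1.52-fold above that at 10 nM, a difference of 0.60 ± 0.064 (adjusted p = 7.91e-06). This comparison and the difference at 10 nM rest on arrays with low poly-A spikes and a high ACTB 3′ minus 5′ difference. Dose and this array difference cannot be told apart. The 40 nM effect was larger at 48 h than at 24 h by 0.73 ± 0.091 (adjusted p = 0.000104). CDKN1A was the only gene of the 6 that passed in the same direction in all 3 comparisons with vehicle. Its calls held in all alternatives run other than the 2-fold threshold. The 40 nM differences from vehicle draw on the 10 nM arrays, with their high ACTB 3′ minus 5′ difference, only through the shared spread, and they passed without those arrays.

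**Figure D2:**
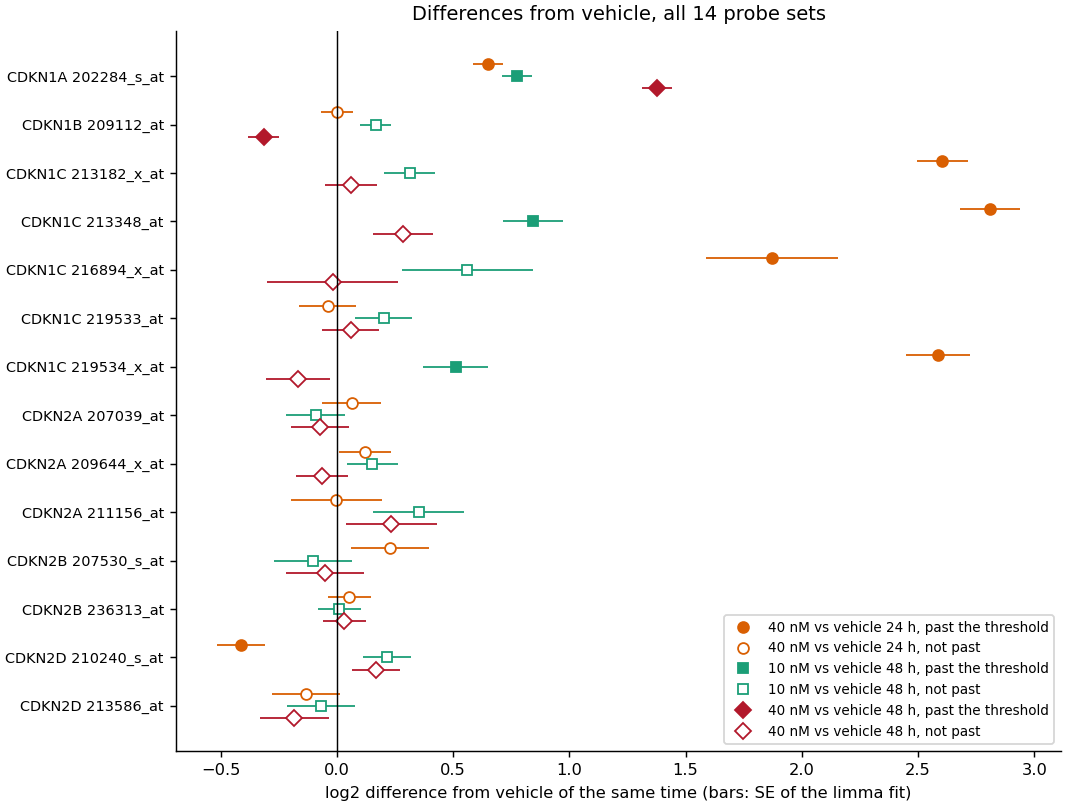
Log2 difference from vehicle of the same time for the 14 probe sets, with bars of 1 SE of the limma fit. Filled points passed at an adjusted p below 0.05: CDKN1A in all 3 comparisons, CDKN1B in 1, CDKN1C by 4 of 5 probe sets at 24 h and 2 of 5 at 10 nM, and CDKN2D by 1 probe set at 24 h.

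CDKN1B encodes p27, which in quiescent cells binds cyclin E with CDK2. Its probe set, 209112_at, fell with 40 nM at 48 h and not at 24 h. The vehicle arrays of 24 h read 8.97, 9.04 and 8.85, and the 40 nM arrays, at 8.98, 8.95 and 8.93, lay inside that range. At 48 h the vehicle arrays read 9.41, 9.32 and 9.36, the 10 nM arrays 9.55, 9.57 and 9.49 and the 40 nM arrays 9.01, 9.10 and 9.04. Here the 3 groups did not overlap: 10 nM was the highest and 40 nM the lowest, with vehicle between them.

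With 40 nM at 48 h the CDKN1B difference was -0.31 ± 0.067, a 1.24-fold lower level (adjusted p = 0.00483). At 24 h it was 0.00040 (95% interval -0.14 to 0.14, adjusted p = 0.998). At 10 nM the difference of 0.17 ± 0.067 (95% interval 0.025 to 0.31) missed the threshold (adjusted p = 0.103), and the adjusted p ran from 0.0167 to 0.275 over the alternatives, 6 of which passed. Between the doses CDKN1B was 1.40-fold lower at 40 nM, by -0.48 ± 0.067 (adjusted p = 9.69e-05). Both this comparison and the difference at 10 nM rest on arrays with low poly-A spikes and a high ACTB 3′ minus 5′ difference. Dose and this array difference cannot be told apart. The 40 nM effect at 48 h was below that at 24 h by -0.31 ± 0.094, just past the threshold (adjusted p = 0.0497). This last call was lost when any one of 14 of the 15 arrays was left out (adjusted p from 0.0530 to 0.118) and without all 10 nM arrays (0.0775).

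CDKN1C encodes p57, the Cip/Kip member best known from development and from differentiated, non-dividing cells. It rose with 40 nM at 24 h by more than any other member in any comparison, and at 48 h the same dose did not pass. Its brightest probe set, 213348_at, read 4.85, 5.08 and 4.86 in vehicle at 24 h and 7.65, 7.88 and 7.70 with 40 nM. At 48 h it read 4.89, 4.71 and 4.84 in vehicle, 5.67, 5.82 and 5.49 at 10 nM and 4.86, 5.02 and 5.42 at 40 nM. The groups of 24 h lay far apart, the 10 nM arrays lay above the other groups of 48 h, and the 40 nM arrays of 48 h overlapped with vehicle.

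No fold is given for CDKN1C, because its vehicle levels lay in or near the range of the CDKN2A probe sets. For 213348_at the difference at 24 h was 2.81 ± 0.13 (adjusted p = 1.24e-09). At 48 h it was 0.84 ± 0.13 at 10 nM (adjusted p = 0.000208), and 0.28 ± 0.13 at 40 nM, which did not pass (95% interval 0.0078 to 0.56, adjusted p = 0.210). Between the doses it was lower at 40 nM than at 10 nM by -0.56 ± 0.13 (adjusted p = 0.00575). The 40 nM effect was lower at 48 h than at 24 h by -2.53 ± 0.18 (adjusted p = 9.55e-07). The 24 h difference passed without the 10 nM arrays too.

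**Figure D3:**
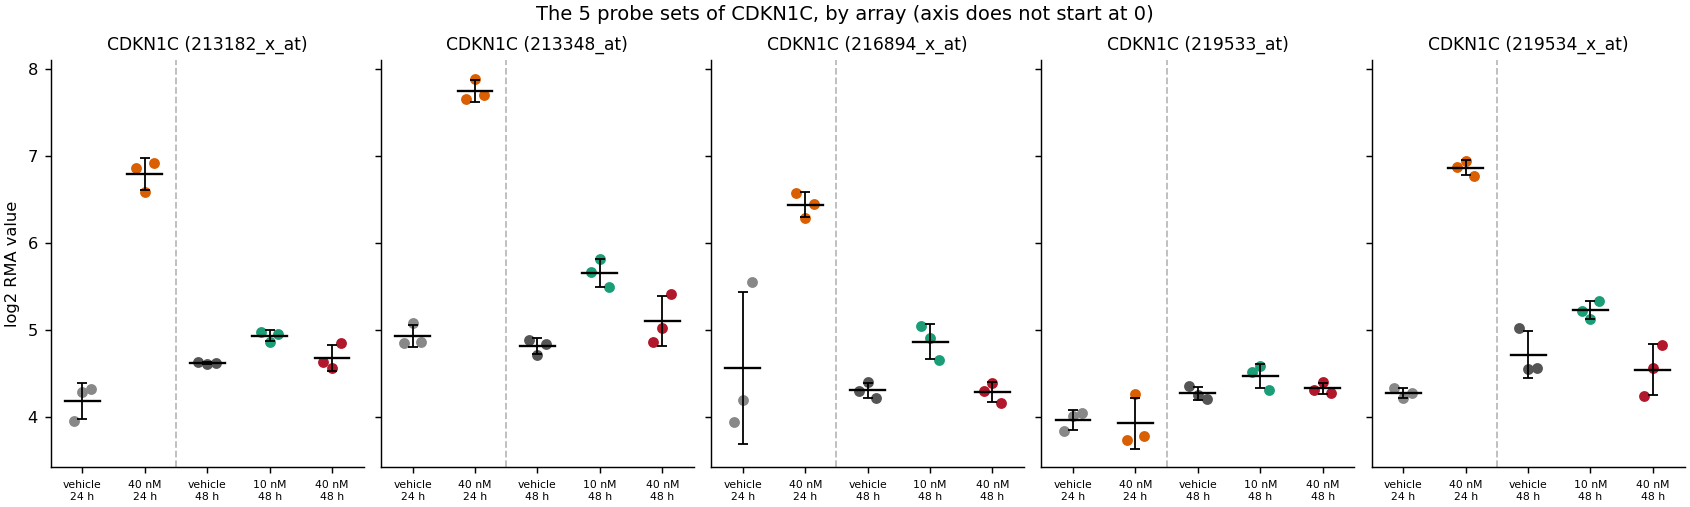
Log2 RMA levels of the 5 CDKN1C probe sets on the 15 arrays, by group, with points for arrays and a line at each group mean. In 4 probe sets the 40 nM arrays of 24 h stand above all other arrays, and 219533_at shows no such step.

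Of the other CDKN1C probe sets, 3 rose at 24 h and 1 did not pass. At 24 h 213182_x_at was higher by 2.60 ± 0.11, 219534_x_at by 2.59 ± 0.14 and 216894_x_at by 1.87 ± 0.28. The vehicle arrays of 216894_x_at spread widely, at 3.94, 4.19 and 5.56, and the third array of this group lies nearest to the 40 nM arrays, at 6.57, 6.28 and 6.45, without reaching them. Probe set 219533_at did not pass in any comparison; it read 3.84, 4.02 and 4.05 in vehicle and 3.74, 4.27 and 3.79 with 40 nM, a difference of -0.04 (adjusted p = 0.886, 95% interval -0.30 to 0.22). Over the 15 arrays the 4 probe sets that rose correlated with each other at 0.885 to 0.976, and with 219533_at at -0.25 to -0.042. These correlations were taken on values minus the vehicle mean of the same time, and the arrays of a group share their treatment. Probe sets whose names end in _x_at can share probes with other transcripts.

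With 10 nM at 48 h 219534_x_at also passed, at 0.51 ± 0.14 (adjusted p = 0.0163), and 213182_x_at, at 0.31 ± 0.11 (adjusted p = 0.0613), and 216894_x_at, at 0.56 ± 0.28 (adjusted p = 0.218), did not. The call of 219534_x_at was lost without the second or the third vehicle array of 48 h (adjusted p = 0.0810 and 0.0800) and without the third 10 nM array (0.0636). That of 216894_x_at passed without the third vehicle array of 24 h, which sets much of its spread (adjusted p = 0.00230). For all CDKN1C results at 10 nM the ACTB 3′ minus 5′ difference and the low poly-A spikes of the same arrays moved with the group. Dose and this array difference cannot be told apart. With 40 nM at 48 h the 4 probe sets read 0.28, 0.06, -0.02 and -0.17 relative to vehicle, and none passed. For 213182_x_at, 216894_x_at and 219534_x_at the 40 nM effect at 48 h minus that at 24 h was -2.54, -1.89 and -2.75, and all 3 passed.

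The CDKN2A probe sets gave the background, since A549 is known to lack this locus. Their group means ran from 2.57 to 3.30 for 207039_at, from 4.71 to 5.39 for 209644_x_at and from 4.14 to 4.63 for 211156_at. Within a time, the 3 probe sets spanned 2.57 to 4.83 at 24 h and 3.21 to 5.39 at 48 h. Both upper ends came from 209644_x_at, of the kind that can share probes with other transcripts. None of the 3 passed in any comparison, and the lowest adjusted p was 0.226. The CDKN1C probe sets read 3.97 to 4.93 in vehicle at 24 h, with 213348_at just above these CDKN2A values and the others within them, and 4.27 to 4.82 in vehicle at 48 h, within them, so no level of its own can be given to CDKN1C in vehicle. With 40 nM at 24 h 4 CDKN1C probe sets read 6.44 to 7.74, above all 3 CDKN2A probe sets.

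CDKN2B, the neighbour of CDKN2A that encodes p15, read 3.7 to 4.0 for 207530_s_at and 2.34 to 2.50 for 236313_at over the 5 groups. Neither passed in any comparison, and all differences from vehicle lay between -0.10 and 0.23. The long noncoding RNAs CDKN2A-AS1 and CDKN2B-AS1 of the same locus read 3.46 to 3.82 and 2.51 to 2.68. Of 6 probe sets of MTAP, the enzyme gene next to CDKN2A that is known to be lost with it in A549, 5 had group means between 2.49 and 5.16. The other, 211363_s_at, read 7.5 to 8.2, as high as CDKN1C with 40 nM at 24 h. The CDKN2A range is therefore no upper limit for every probe set annotated to a gene known to be lost. With 40 nM at 48 h 211363_s_at was lower than vehicle by -0.30 ± 0.087 (adjusted p = 0.0328), and it did not pass at 24 h or at 10 nM. What it measured was not tested.

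CDKN2D encodes p19, an INK4 protein whose level is known to vary through the cell cycle. Its brighter probe set, 210240_s_at, fell with 40 nM at 24 h and did not pass at 48 h. At 24 h it read 5.54, 5.33 and 5.31 in vehicle and 4.95, 4.90 and 5.10 with 40 nM. At 48 h it read 5.62, 5.35 and 5.49 in vehicle, 5.60, 5.91 and 5.60 at 10 nM and 5.60, 5.76 and 5.62 at 40 nM. The groups of 24 h did not overlap, and those of 48 h did. Its group means of 24 h, 5.40 and 4.98, lay above the highest CDKN2A mean of that time, 4.83, and those of 48 h, from 5.49 to 5.70, above 5.39.

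For CDKN2D the difference at 24 h was -0.41 ± 0.10 (adjusted p = 0.00833). No fold is given, because its lowest 40 nM array, at 4.90, lay below the highest CDKN2A array of 24 h, at 4.93. At 48 h it was 0.21 ± 0.10 at 10 nM (adjusted p = 0.196) and 0.17 ± 0.10 at 40 nM (adjusted p = 0.404). The 40 nM effect at 48 h was above that at 24 h by 0.58 ± 0.15 (adjusted p = 0.0186). This call was lost without the second vehicle array of 48 h (adjusted p = 0.0550) or the second 40 nM array of 48 h (0.0534). It was also lost with the mean of both probe sets in place of the brighter one, where the difference was 0.27 (adjusted p = 0.126). The dimmer probe set, 213586_at, read 3.74 ± 0.36 (SD, n = 3) in vehicle at 24 h and did not pass in any comparison.

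The times could not be compared directly, since time and scale cannot be told apart. As deposited, vehicle at 48 h minus vehicle at 24 h had a median of 0.31 over the 14 probe sets and 0.34 over all probe sets. After quantile normalization over all arrays these were -0.13 and -0.026. CDKN1A moved from 0.40 to 0.079 and CDKN1B from 0.41 to 0.082 between the scalings, while CDKN1C 213348_at moved from -0.12 to -0.61.

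Genes of the pathway were read from the brightest probe set of each gene, again with limma over all probe sets, and set beside the share of 19775 genes called. At 24 h with 40 nM 13.4% of genes were higher and 14.9% lower. Of 14 S phase genes driven by E2F, 13 were lower and none higher, with a median difference of -0.81 against -0.0072 for all genes. They included RRM2, a subunit of ribonucleotide reductase, at -1.73 ± 0.060, CDC45 at -1.06 ± 0.088 and MCM7 at -1.02 ± 0.068, parts of the replicative helicase. Of 13 cyclins and kinases that the inhibitors bind, 7 were lower and 3 higher. Cyclin A2 (CCNA2) was lower by -1.21 ± 0.082 and cyclin E2 (CCNE2) by -1.07 ± 0.10, while cyclin D3 (CCND3) was higher by 1.17 ± 0.065. CDK4, the main partner of the INK4 proteins, was lower by -0.54 ± 0.059 and CDK6 higher by 0.42 ± 0.074. Of 13 pocket proteins and E2F factors 6 were lower and none higher, among them the repressors E2F7, at -1.40 ± 0.12, and E2F8, at -1.25 ± 0.089.

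At 10 nM, where 12.8% of genes were higher and 10.7% lower, the S phase genes split, with 4 higher and 2 lower of 14 and a median of 0.025 against 0.0042 for all genes. The cyclins and kinases had 4 higher and 3 lower, with CCND3 at 0.83 ± 0.065 and CDK6 at -0.68 ± 0.074. Of the 13 pocket proteins and E2F factors 3 were higher and 3 lower. Here and in the lists below, the 10 nM values come from arrays with low poly-A spikes and a high ACTB 3′ minus 5′ difference. Dose and this array difference cannot be told apart. With 40 nM at 48 h, where 9.01% of genes were higher and 8.59% lower, 2 S phase genes were higher and 1 lower of 14, with a median of 0.012 against -0.016. The cyclins and kinases had 5 higher and 1 lower of 13, led by CCND3 at 0.98 ± 0.065 and cyclin E1 (CCNE1) at 0.59 ± 0.083. Of the 13 pocket proteins and E2F factors 1 was higher, the retinoblastoma gene RB1, at 0.46 ± 0.078, and 1 was lower, the E2F partner TFDP2, at -0.41 ± 0.12.

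The 40 nM effect on all 14 S phase genes was higher at 48 h than at 24 h, with a median of 0.73 against -0.0039 for all genes. In this comparison 7.42% of genes were higher and 6.22% lower. RRM2 had the largest S phase difference, at 2.06 ± 0.084. Among the inhibitors that passed, CDKN1A and CDKN2D 210240_s_at went the same way, at 0.73 and 0.58. CDKN1B and 4 CDKN1C probe sets went the opposite way. A link between the inhibitors and the S phase genes was not tested. Of the cyclins and kinases 8 were higher and 1 lower, and of the pocket proteins and E2F factors 6 were higher and none lower.

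**Figure D4:**
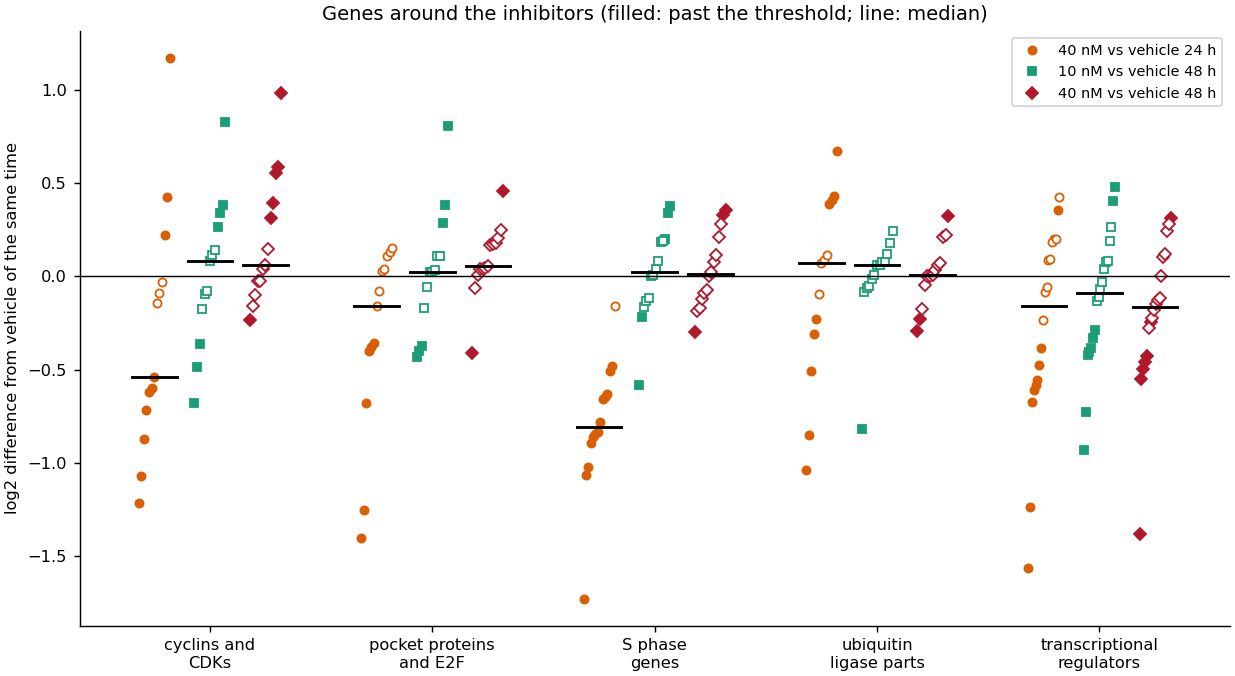
Log2 difference from vehicle of the same time for the genes of 5 lists around the inhibitors, 1 point per gene (brightest probe set), with a line at the median of each list. The S phase genes lie below 0 at 24 h with 40 nM, with a median of -0.81, and around 0 at 48 h at both doses.

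Ubiquitin ligase parts, listed for a direct or indirect role around the inhibitors, went both ways at 24 h, with 4 higher and 5 lower of 13. CDC20, an activator of the anaphase-promoting complex, was lower by -1.04 ± 0.059, and CKS1B, the cofactor of SKP2 on p27, by -0.85 ± 0.062. SKP2 itself read 0.09 ± 0.089 and did not pass. At 10 nM 1 of 13 was lower, the scaffold CUL1, at -0.82 ± 0.088, and with 40 nM at 48 h 1 was higher and 2 were lower, CKS1B among them at -0.29 ± 0.062. Of 18 measured regulators of the inhibitor genes, 8 were lower and 2 higher at 24 h, 7 and 2 at 10 nM, and 6 and 1 with 40 nM at 48 h. MYC, which represses CDKN1A and CDKN2B together with ZBTB17, was lower in all 3, by -0.67 ± 0.065, -0.93 ± 0.065 and -0.50 ± 0.065. EZH2, the methyltransferase of the repressive mark H3K27me3 and known to silence CDKN1C, was lower by -1.23 ± 0.089 at 24 h, and its 40 nM effect was higher at 48 h by 1.36 ± 0.13. KLF6, an activator of CDKN1A, was lower by -1.56 ± 0.11 at 24 h and -0.55 ± 0.11 with 40 nM at 48 h, where KLF4 was lower by -1.38 ± 0.093. Whether any of these regulators had a part in the changes of the inhibitor genes was not tested.

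Of 6 measured neighbours of CDKN1C at 11p15, none was higher in any comparison with vehicle, and at 24 h PHLDA2, itself an imprinted gene, was lower by -1.02 ± 0.072, opposite to CDKN1C. KCNQ1OT1, the noncoding RNA that silences this domain in cis, read 0.04 ± 0.11 at 24 h and did not pass. At 10 nM 3 of the 6 were lower, led by NAP1L4 at -0.65 ± 0.073. Of 8 genes whose proteins are assembled with the inhibitors or are named like them, 4 were lower and 1 higher at 24 h. CDKN3, a phosphatase that carries the name of the inhibitors and is no member of either family, was lower by -0.72 ± 0.057 at 24 h and higher by 0.58 ± 0.057 at 10 nM. CDC37, which brings kinases such as CDK4 to HSP90, was higher with 40 nM by 0.37 ± 0.077 at 24 h and 0.27 ± 0.077 at 48 h, and lower by -0.37 ± 0.077 at 10 nM.

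For each inhibitor gene whose brightest probe set passed, the 3 genes with the most similar pattern were taken by Pearson's r over the 15 arrays, on values minus the vehicle mean of the same time, among 980 or 981 genes that reached a log2 difference of 1 at least once. For CDKN1A these were ASPHD1 (r = 0.983), PFKFB4 (0.982) and TNFAIP2 (0.979); ASPHD1 differed from vehicle by 0.76 at 24 h, 1.06 at 10 nM and 2.11 with 40 nM at 48 h. For CDKN1B they were FOXQ1 (0.926), PCBD2 (0.859) and FYN (0.852), and FOXQ1 differed by 0.09, 1.11 and -0.80. For CDKN1C they were EPB41L4A-AS1 (0.988), LIMD1 (0.979) and AHSA2P (0.979), and EPB41L4A-AS1 differed by 1.32, 0.35 and 0.18, less than CDKN1C itself. For CDKN2D they were the kinetochore genes NDC80 (0.947) and CENPE (0.927) and the clotting factor gene F8 (0.931), and NDC80 differed by -1.01, 0.50 and 0.24. The arrays of a group share their treatment, so these values describe the likeness and carry no test.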

How the data were processed

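Total RNA of A549 cells was measured on 15 arrays. The deposited values are log2 expression values, which the authors made by RMA, with Affymetrix Expression Console, as per the submitters' processing notes; versions are not given in the sources used here. From the mean over all probe sets, 24 h and 48 h arrays look separately normalized, so differences were taken within a time. The table holds 54675 probe sets, 62 of them controls. The platform annotation gave 41091 of the others 1 symbol, 1801 several and left 11721 unnamed here; the gene ID updated 41037 symbols. All columns were mapped to a sample.

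The 5 group means of all 15 arrays entered 1 limma fit (version 3.58.1, R 4.3.3; eBayes, 10 residual degrees of freedom). Two-sided p-values were adjusted by Benjamini-Hochberg over all 54613 probe sets, lists included, with a threshold of 0.05. The "±" of a difference is the standard error of this fit. The median standard error of a difference was 0.11, and the number of arrays limits the precision. The fit was tested on simulated data. All member probe sets are named; from each gene list, at most 4 passing genes with the largest difference per comparison are eligible, and CDK4, CDK6 at 24 h, SKP2 and KCNQ1OT1, outside this rule, were chosen for their role after their values were seen. Members and lists were chosen with earlier results of these data known.

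The alternatives were quantile, cyclic loess and median scaling, low values raised to the 20th percentile, removal of the dimmest 40%, the brightest probe set or the mean per gene, array weights, the replicate block, a robust prior with an intensity trend, fits of the compared groups alone or without the 10 nM arrays, a 2-fold threshold and each array left out in turn.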

Additional observations from a re-analysis of the deposited data

Results flagged for a closer look

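The effect of 40 nM on 7 probe sets differed between the times by the test of the difference itself, given as the log2 difference from vehicle at 48 h minus that at 24 h. It was 0.73 for CDKN1A, whose rise was larger at 48 h, and 0.58 for CDKN2D 210240_s_at, which was below vehicle by -0.41 at 24 h and did not pass at 48 h. It was -0.31 for CDKN1B, a call that most single-array omissions ended. For CDKN1C it was -2.54 for 213182_x_at, -2.53 for 213348_at, -1.89 for 216894_x_at and -2.75 for 219534_x_at, and each of these rose at 24 h and did not pass at 48 h.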

How the results depend on the processing

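Of 70 results on single probe sets, 62 had no change of call in any alternative other than the 2-fold threshold, and none that was called changed direction. The count of probe sets called with 10 nM, 3, was 5 after quantile normalization, 5 with the dimmest 40% left out, 6 with array weights and 5 with the compared groups alone. Counting genes in place of probe sets gave 3 for both the brightest probe set and the gene mean where 6 probe sets were called at 24 h, and 4 and 3 where 7 were called for the 40 nM effect at 48 h minus that at 24 h, with fewer features by construction. A 2-fold threshold, a stricter rule, left 4 at 24 h, 0 at 10 nM, 1 with 40 nM at 48 h, 0 between the doses and 4 for the effect difference. Array weights gave 6 between the doses in place of 4. With each array left out in turn the counts ran from 2 to 4 at 10 nM, 4 to 5 between the doses and 5 to 7 for the effect difference, and stayed at 6 and 2 for 40 nM at 24 h and 48 h. The vehicle median over the member probe sets went from 0.31 to -0.13 with quantile normalization. Arrays with the same replicate number had deviations that correlated from -0.40 to 0.43 (median -0.034, 30 pairs), and 6 of 15 arrays correlated best with their own number, so the numbers do not pair the arrays. With the replicate block the member counts were 6, 3, 2, 4 and 6 in the order of the comparisons, with CDKN1B alone lost from the effect difference (adjusted p = 0.0680), and the counts over all probe sets went from 11512 to 10900, 10421 to 9755, 6830 to 6117, 10233 to 9461 and 5229 to 4589. CDKN1B in the effect difference was also lost with array medians subtracted (0.165).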
